A study of Mus musculus with 2 samples.

Results

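Mir23a, Mir27a and Mir24-2 on mouse chromosome 8, and Mir23b, Mir27b and Mir24-1 on chromosome 13, form a pair of paralogous clusters. Mir3074-1 and Mir3074-2 lie on the opposite strand of Mir24-1 and Mir24-2. These 8 genes were taken by their GENCODE M21 names from the 2202 microRNA genes counted in each library. Hearts were taken from B6CASTF1/J females, a hybrid mouse strain, at an age of 4 days. The labels name no treatment and give RNA under 30 nt as the size selected. There was 1 group with 2 libraries, replicate 1 being animal 3 and replicate 2 animal 4 in the labels, which give both the same donor entry. Each library was made from heart tissue of mixed cells, so fewer cells of a type and less microRNA per cell cannot be told apart.

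In animals a microRNA is cut from a hairpin as a short duplex, and either the 5p or the 3p strand can be loaded into an Argonaute protein, where bases 2 to 8, the seed, pair with target messages. Genes of a microRNA cluster are commonly processed from a shared primary transcript, after which each hairpin is cut and each product decays at its own rate. The miR-23, miR-27 and miR-24 families are known from endothelial cells and vessel growth, and in heart muscle from hypertrophic growth and from cell survival.

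The 3p strands of Mir23a and of the Mir27 and Mir24 genes are printed, as is the 5p strand of the Mir3074 genes. They bear on which reads can be told apart between the copies. The RefSeq listing used here has no 3p strand for Mir23b. Sequences are those of RefSeq for GRCm38.p6, 5′ to 3′, with the seed in capitals.
miR-23a-3p: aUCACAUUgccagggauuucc
miR-27a-3p: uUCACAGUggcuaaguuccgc
miR-27b-3p: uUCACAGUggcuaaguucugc
miR-24-3p: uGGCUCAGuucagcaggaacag
miR-3074-5p: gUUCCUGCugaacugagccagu
Positions are counted from the 5′ end of the first named sequence. Over its 21 nt, miR-27a-3p differed from miR-27b-3p by 1 base (C19U), outside the seed. Set against the Mir23b hairpin, miR-23a-3p also differed by 1 base (U19A) and matched its first 18 nt. By contrast, miR-24-3p had all 22 nt in common between Mir24-1 and Mir24-2, and miR-3074-5p had all 22 nt in common between Mir3074-1 and Mir3074-2. The seed of miR-27 was shared by no other mouse gene in that table, and that of miR-24-3p was shared by 4 others (Mir5124b, Mir6369, Mir6410 and Mir6413), which together had 1 count in both libraries.

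The 5p strands are printed because they hold the bases that separate the copies of Mir24.
miR-24-1-5p: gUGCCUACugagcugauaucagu
miR-24-2-5p: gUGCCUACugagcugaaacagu
miR-23a-5p: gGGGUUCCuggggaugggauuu
miR-23b-5p: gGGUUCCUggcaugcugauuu
miR-27a-5p: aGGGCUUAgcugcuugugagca
miR-27b-5p: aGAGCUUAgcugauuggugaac
Both miR-24 5p strands have the same seed and are identical over their first 16 nt. The 5p strands of the Mir23 copies have different seeds, as have those of the Mir27 copies. The Mir23 and Mir27 5p strands differed from the best ungapped match in the other copy by 6 to 8 bases.

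The hairpins show the extent of the shared stretch, in capitals, which is the longest run common to both copies.
Mir23a: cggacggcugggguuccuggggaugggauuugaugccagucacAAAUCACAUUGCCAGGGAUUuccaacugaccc
Mir23b: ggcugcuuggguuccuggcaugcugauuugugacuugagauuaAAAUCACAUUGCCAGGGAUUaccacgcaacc
Mir24-1: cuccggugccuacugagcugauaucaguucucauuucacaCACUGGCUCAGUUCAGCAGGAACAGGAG
Mir24-2: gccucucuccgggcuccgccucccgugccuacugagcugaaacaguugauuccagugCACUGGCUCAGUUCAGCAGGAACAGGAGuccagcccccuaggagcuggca
The run was 20 nt long between Mir23a and Mir23b and began 2 nt before the miR-23a-3p start. It was also 20 nt long between Mir27a and Mir27b. Between Mir24-1 and Mir24-2 it was 28 nt long and covered the whole of miR-24-3p, and between Mir3074-1 and Mir3074-2 it was 30 nt long and covered miR-3074-5p. Reads with more than 1 mapping position are in no gene's count, and they made up 39.6% of the reads of replicate 1 and 43.2% of those of replicate 2. How many of them came from miR-24-3p was not tested.

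Windows of 20 nt were searched on both strands of the 141767 M21 transcripts, overlapping genes left out. In Mir23a 55 of 56 windows were found nowhere else, in Mir23b 54 of 55, in Mir27a 67 of 68 and in Mir27b 53 of 54. Mir24-2 had 77 of 88 such windows (87.5%) and Mir24-1 had 40 of 49 (81.6%). Within the mature strands, all 3 windows inside miR-24-3p were found in the other copy, and none of the 3 inside miR-24-2-5p or the 4 inside miR-24-1-5p were. For miR-23a-3p and miR-27a-3p, no 20-nt window inside the strand was found elsewhere, but 1 of 4 windows of 18 nt was. A match says only that these letters recur among annotated transcripts, and the genome outside them was not searched.

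**Figure D1:**
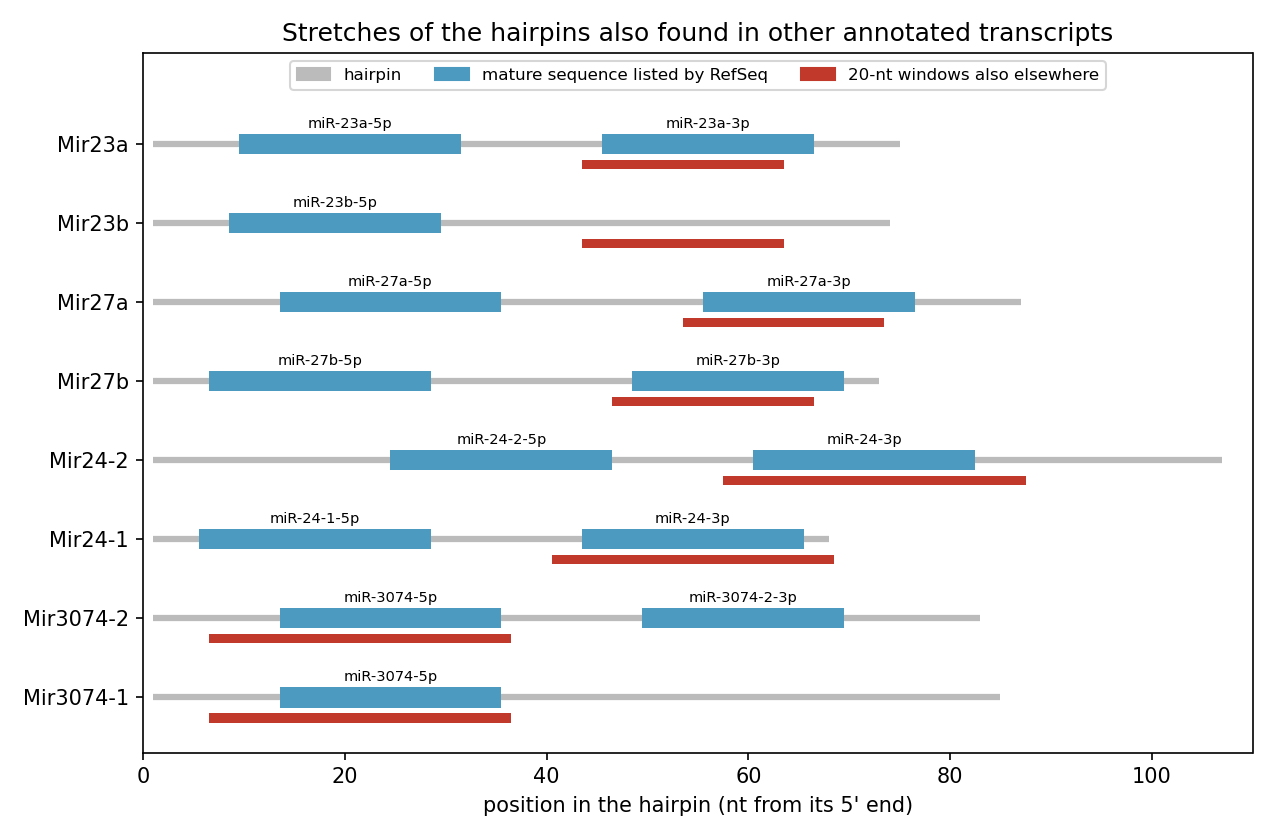
Hairpins of the 8 genes, drawn by position in nt from the hairpin's 5′ end (grey), with the mature sequences RefSeq lists (blue) and the 20-nt windows also found in other M21 transcripts (red). In both Mir24 genes the red stretch covers all of miR-24-3p, while in the Mir23 and Mir27 genes it is a single window of 20 nt.

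The chromosome 8 cluster spans 404 nt on the plus strand, and the chromosome 13 cluster spans 792 nt on the plus strand (mm10, 1-based). Mir23a (ENSMUSG00000065611.1, 84208518 to 84208592) and Mir27a (84208672 to 84208758) overlap no other M21 gene. Mir24-2 (84208815 to 84208921) overlaps the first 2 nt of the long noncoding RNA gene Gm26532. The nearest protein-coding gene to this cluster is Zswim4, 1757 nt beyond Mir24-2. On chromosome 13, Mir23b (ENSMUSG00000065599.2, 63300484 to 63300557), Mir27b (63300712 to 63300784) and Mir24-1 (63301208 to 63301275) lie inside 2010111I01Rik, the gene of aminopeptidase O, on its strand. They also lie opposite an intron of Fancc, a DNA repair gene. Mir23b is intronic in 2010111I01Rik, while Mir27b and Mir24-1 also overlap exons, all of them in transcripts that M21 classes as nonsense-mediated decay, processed transcript or retained intron. The minus-strand genes Mir3074-2 (chromosome 8, 84208825 to 84208907) and Mir3074-1 (chromosome 13, 63301199 to 63301283) cover 83 and 68 nt of their Mir24 partners.

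Replicate 1 held 6417302 own-strand counts over microRNA genes and replicate 2 held 5662222. Levels are given as CPM, each count scaled to that total, from the column that counts reads on the gene's own strand. Of the 8 genes, 7 reached 10 counts in both libraries, as did 373 of all 2202 genes (16.9%). Together the 8 genes held 8.08% of all counts in replicate 1, with a 95% Clopper-Pearson interval of 8.06 to 8.10. In replicate 2 they held 6.84%, with bounds of 6.82 and 6.86. Adding every multi-mapped read to the totals, and none to the members, gave 4.27% and 3.37%. The intervals cover only the counting error of reads, and the labels mention no molecular identifiers.

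Mir23b and Mir23a led their clusters. Mir23b had 272534 counts in replicate 1 and 223976 in replicate 2, or 42469 and 39556 CPM (41012 ± 2059, SD, n = 2), rank 6 of all genes. Mir23a had 218922 and 124589 counts, or 34114 and 22004 CPM (28059 ± 8564), rank 10. Mir23b lay above Mir23a in both libraries, and their ranges did not overlap. By CPM the gap between the libraries was wider for Mir23a than for Mir23b. With the TMM scaling used below, their log2 ratios of replicate 1 over replicate 2 were closer in size, at 0.30 and −0.23.

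The Mir27 genes came next in both clusters, with the order of the copies the same as for Mir23. Mir27b had 19520 and 30888 counts, or 3042 and 5455 CPM (4248 ± 1706, SD, n = 2), rank 40. Mir27a had 4768 and 5665 counts, or 743 and 1000 CPM (872 ± 182), rank 80. Both Mir27 genes were higher in replicate 2 by CPM, while both Mir23 genes were higher in replicate 1.

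The Mir24 genes, whose counts leave out reads of the shared 3p strand that map to both copies, were the lowest of the plus-strand members. Mir24-1 had 1487 and 1112 counts, or 232 and 196 CPM (214 ± 24.98, SD, n = 2), rank 140. Mir24-2 had 1024 and 933 counts, or 160 and 165 CPM (162 ± 3.68), rank 149. The CPM ranges of these copies did not overlap either, with Mir24-1 above Mir24-2 in both libraries.

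On the minus strand, Mir3074-1 had 187 counts in replicate 1 and 21 in replicate 2, or 29.1 and 3.71 CPM (16.4 ± 17.98, SD, n = 2), rank 267. Its partner Mir3074-2 had 1 count and 0, both below the floor of 3 counts, which stands for 0.467 CPM in replicate 1 and 0.530 CPM in replicate 2. No fold is given between those. The ranges of any 2 members next to each other in this order did not overlap, from Mir23b down through Mir23a, Mir27b, Mir27a, Mir24-1, Mir24-2 and Mir3074-1 to Mir3074-2. Levels of different genes were not tested against each other.

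**Figure D2:**
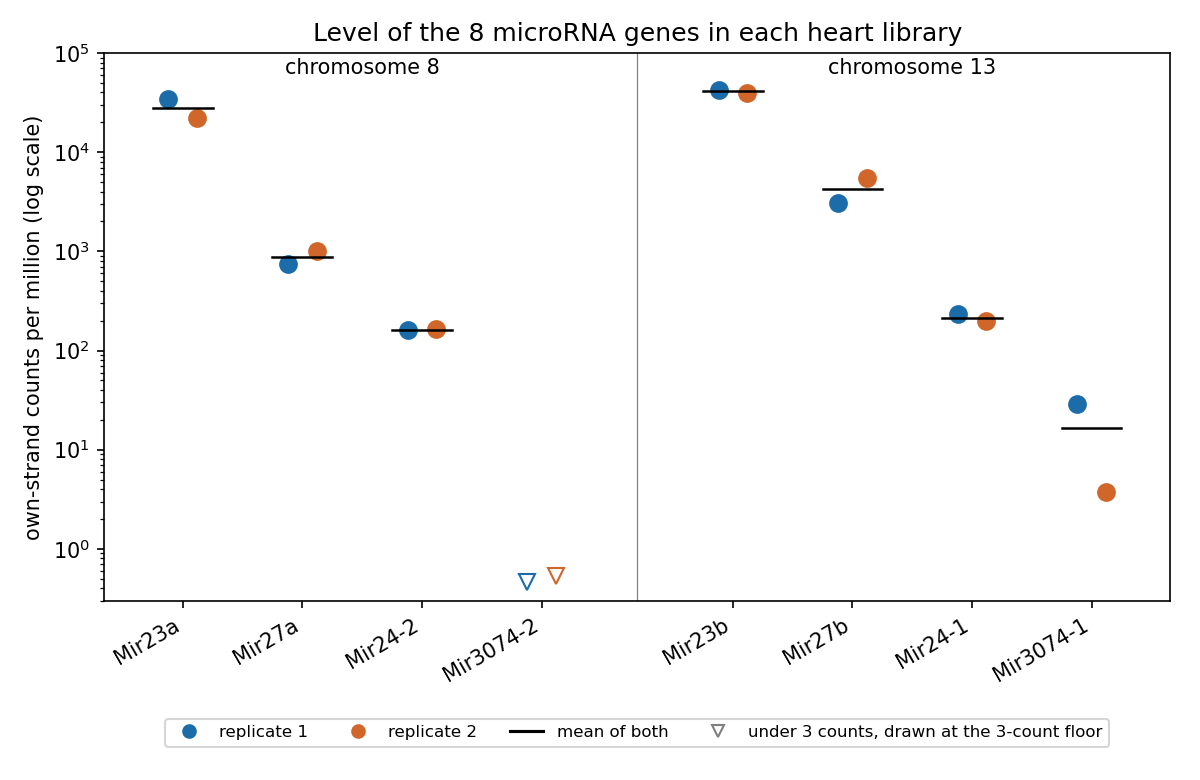
Own-strand CPM (log scale) of the 8 genes in replicate 1 (blue) and replicate 2 (orange), with the mean as a line and values under 3 counts as open triangles at the floor. In both clusters the Mir23 gene lies highest and the Mir24 gene lowest on the plus strand, and Mir3074-1 shows the widest gap between libraries.

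The strand columns of the Mir24 loci mirrored each other. The opposite-strand count of Mir3074-2 was 1024 and 933, the own-strand count of Mir24-2 in each library, and the opposite-strand count of Mir3074-1 was 1487 and 1112, the own-strand count of Mir24-1. In the column that ignores strand all 4 of these genes stood at 0, and reads over genes of both strands were set aside as ambiguous. Mir23a, Mir27a, Mir23b and Mir27b had 0 opposite-strand counts in both libraries.

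Among the reads counted for a single gene, the minus-strand share differed between the copies and between the libraries. Reads of the shared miR-24-3p and miR-3074-5p that map to both copies are in neither part of these shares. Mir3074-1 made up 11.2% of the counted reads of the Mir24-1 locus in replicate 1 (187 of 1674, 95% Clopper-Pearson interval 9.70 to 12.8) and 1.85% in replicate 2 (21 of 1133, 1.151 to 2.82). Mir3074-2 made up 0.0976% of the counted reads of the Mir24-2 locus in replicate 1 (1 of 1025, interval 0.00247 to 0.542) and 0 of 933 reads in replicate 2 (upper bound 0.395%). These intervals did not overlap between the Mir24-1 and Mir24-2 loci in either library, nor between the libraries at the Mir24-1 locus. They cover counting error only, and whether these shares differed beyond the spread between hearts was not tested.

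Within each cluster the counts were steeply unequal. Mir23a held 97.4% of the chromosome 8 cluster in replicate 1 and 94.97% in replicate 2 (96.2% ± 1.73, SD, n = 2). Mir23b held 92.8% and 87.5% of the chromosome 13 cluster (90.2% ± 3.78). Mir27a held 2.12% and 4.32% of its cluster and Mir27b held 6.65% and 12.1%, both higher in replicate 2. Mir24-2 and Mir24-1 held under 1% of their clusters, at 0.456% and 0.711% for Mir24-2 and 0.507% and 0.434% for Mir24-1. These shares are of counts without multi-mapped reads, and a cluster share for Mir24 is therefore no measure of its main strand.

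The Mir23 genes outnumbered their Mir27 neighbours less in replicate 2, in both clusters. Mir23a stood 45.9 times above Mir27a in replicate 1 and 21.99 times in replicate 2, a 2.09-fold difference between the libraries (log2 1.06, counting SE 0.03). Mir23b stood 14.0 times above Mir27b in replicate 1 and 7.25 times in replicate 2, a 1.93-fold difference (log2 0.95, counting SE 0.01). Both clusters were measured in the same libraries, so they are not separate evidence. The multi-mapped share, 39.6% in replicate 1 and 43.2% in replicate 2, also differed between the libraries, and its part in these ratios was not tested.

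The ratio to the Mir24 counts, which leave out miR-24-3p reads that map to both copies, behaved differently in the 2 clusters. These ratios are therefore no measure of the main strand of Mir24. Mir23a stood 214 times above Mir24-2 in replicate 1 and 133 times in replicate 2 (log2 difference 0.68, counting SE 0.07). Mir23b stood 183 times above Mir24-1 in replicate 1 and 201 times in replicate 2 (log2 difference −0.14, counting SE 0.06). The Mir27b to Mir24-1 ratio was 13.1 and 27.8 (log2 difference −1.08, counting SE 0.06), against 4.66 and 6.07 for Mir27a to Mir24-2 (−0.38, counting SE 0.07). All ratios within a library are free of the scaling between libraries, but their errors cover counting alone, and whether the 2 clusters differed beyond the spread between hearts was not tested.

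Of each family, the chromosome 13 copy held the larger part in both libraries. Of the Mir23 counts, Mir23b made up 55.5% in replicate 1, where the 95% Clopper-Pearson bounds were 55.3 and 55.6, and 64.3% in replicate 2, where they were 64.1 and 64.4. The mean was 59.9% ± 6.22 (SD, n = 2). Mir27b made up 80.4% of the Mir27 counts (79.9 to 80.9) and 84.5% (84.1 to 84.9), a mean of 82.4% ± 2.92. Mir24-1 made up 59.2% (57.3 to 61.2) and 54.4% (52.2 to 56.6) of the counts that could be told apart between the Mir24 copies, a mean of 56.8% ± 3.42.

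Of these 3 families the chromosome 13 share was highest for Mir27 in both libraries. Of the few Mir3074 counts, Mir3074-1 held 187 of 188 in replicate 1 and 21 of 21 in replicate 2. From replicate 1 to replicate 2 the Mir23b and Mir27b shares were higher and the Mir24-1 share was lower. Dividing the counts by hairpin length, 68 nt for Mir24-1 and 107 nt for Mir24-2, moved the Mir24-1 share to 69.6% and 65.2%, while the Mir23b share (55.8% and 64.6%) and the Mir27b share (83.0% and 86.7%) stayed near their values. Reads under 30 nt come from strands of similar length, so counts undivided by length were kept as the main values. As a whole the chromosome 13 cluster held 4.57% and 4.52% of all counts (4.55% ± 0.0378), and the chromosome 8 cluster held 3.50% and 2.32% (2.91% ± 0.838). These SDs hold for shares of all counts. With the TMM scaling used below, the log2 ratio of replicate 1 over replicate 2 was −0.32 for chromosome 13 and 0.26 for chromosome 8.

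**Figure D3:**
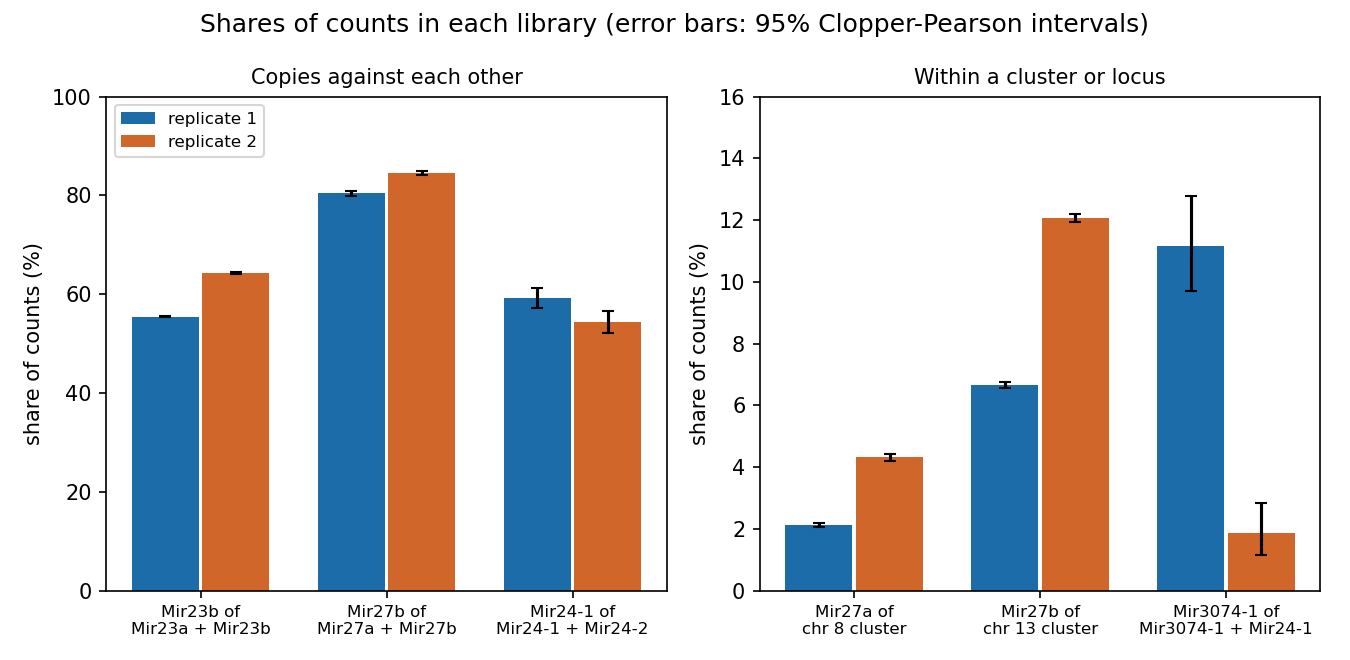
Share of counts in replicate 1 (blue) and replicate 2 (orange), with 95% Clopper-Pearson intervals that cover counting error only. Left, the chromosome 13 copy in each pair, above 50% in all 6 bars; right, Mir27a and Mir27b within their clusters, both higher in replicate 2, and Mir3074-1 among the reads counted at the Mir24-1 locus, higher in replicate 1.

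The libraries were then compared gene by gene, which compares these 2 libraries and no conditions. Genes whose counts in both libraries summed to 10 or more entered an exact binomial test on TMM-scaled library sizes, and a gene was called at a Benjamini-Hochberg adjusted p under 0.05 and over 2-fold. Of 491 genes tested, 55 (11.2%) were called, 18 higher in replicate 1 (3.67%) and 37 higher in replicate 2 (7.54%). Scaling by total counts called 61 (12.4%) and turned that split to 39 (7.94%) and 22 (4.48%), since it moved the median log2 ratio of all genes tested from −0.02 to 0.31.

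Of the 7 members tested, Mir3074-1 was higher in replicate 1, Mir27b was higher in replicate 2 and 5 were not called. Mir3074-1 was 6.11-fold higher in replicate 1 (log2 ratio 2.61, counting SE 0.33, exact binomial test, adjusted p = 1.61e-22). Mir27b was 2.26-fold higher in replicate 2 (log2 ratio −1.18, counting SE 0.01), but total-count scaling brought it within 2-fold (−0.84). In edgeR's exact test, whose dispersion was estimated across genes, 4 of 491 genes were called (0.815%), 2 in each direction (0.407%), and 29 had an unadjusted p under 0.05. None of the 7 members was called by it. Its dispersion came from the differences between these same 2 libraries, so a missing call does not show that a gene was alike in both. Mir3074-1 had the only member p under 0.05 in edgeR's exact test (p = 0.00131, adjusted p = 0.0919), and for Mir27b the adjusted p of that exact test was 1.00.

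The other members lay within 2-fold. Mir27a had a log2 ratio of −0.76 (counting SE 0.03) and Mir24-2 of −0.38 (counting SE 0.07, exact binomial adjusted p = 2.59e-08). Under scaling by total counts Mir24-2 was at −0.05, and of the Mir24 copies Mir24-1 then had the lower adjusted p. Mir23a had 0.30 (counting SE 0.01). Mir23b had −0.23 (counting SE 0.0041), a direction that turned to 0.10 under scaling by total counts. Mir24-1 had −0.09 (counting SE 0.06, exact binomial adjusted p = 0.186), which turned to 0.24 under that scaling. So the plus-strand chromosome 8 members went both ways. The 3 plus-strand chromosome 13 members had negative ratios under TMM scaling, of which Mir23b and Mir24-1 were positive under scaling by total counts. Mir3074-1, on the minus strand of chromosome 13, had a positive ratio (2.61).

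**Figure D4:**
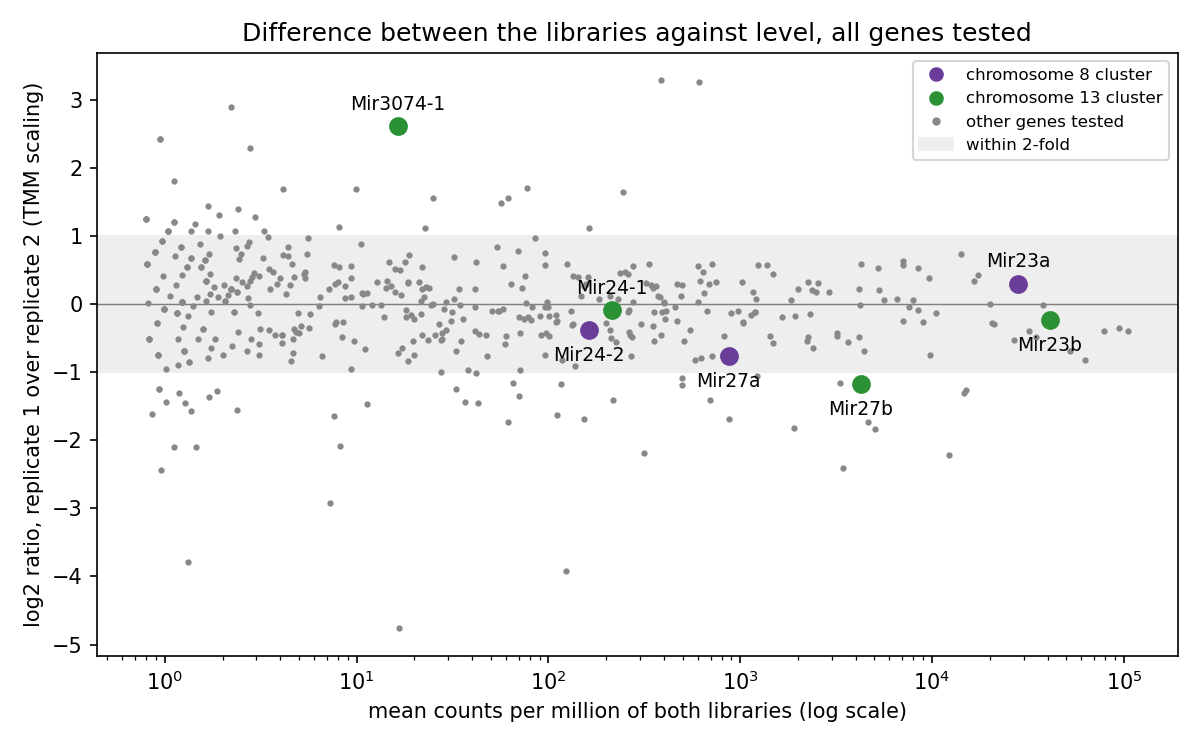
Log2 ratio of replicate 1 over replicate 2 (TMM scaling) against mean CPM (log scale) for the 491 genes tested, with the chromosome 8 members in purple, the chromosome 13 members in green and the range within 2-fold shaded. Mir3074-1 lies above the shaded range at 2.61, Mir27b just below it at −1.18, and the other 5 members inside it.

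Other microRNAs also differed between the libraries. Among 24 genes known from heart muscle growth, fibrosis or vessels, every one tested, 0 were called higher in replicate 1 and 5 higher in replicate 2, beside 3.67% and 7.54% of all genes tested, with a median log2 ratio of −0.39 against −0.02 for all genes tested. The 5 were Mir21a (log2 ratio −2.21), Mir499 (−1.83), Mir195a (−1.69), Mir22 (−1.31) and Mir30d (−1.26), and edgeR's exact test called none of them (lowest adjusted p = 0.170, Mir21a). Scaling by total counts brought Mir22 (−0.98) and Mir30d (−0.93) within 2-fold and called Mir222 higher in replicate 1 (1.30). Mir23b, at 41012 CPM, lay below the highest genes of that list, Mir378a (105623 ± 2965 CPM, SD, n = 2) and Mir126a (62420 ± 14977 CPM), and above the next, Mir30d (14961 ± 6584 CPM) and Mir22 (14617 ± 6741 CPM).

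Some markers of other cells were called between the libraries, where 11.2% of all genes tested were. Of the erythroid genes, Mir451a and Mir144 were called higher in replicate 1 and Mir486 was not called, and the 3 together held 0.0788% of the total in replicate 1 against 0.0300% in replicate 2. Of the 4 leukocyte genes Mir142 was called higher in replicate 1 and Mir223 higher in replicate 2 (0.130% and 0.0872% of counts for the list). Of the 4 epithelial genes Mir200b and Mir205 were called higher in replicate 2, while Mir200c (log2 ratio 0.23) and Mir200a (−0.36) were not called. The list held 0.0453% and 0.0379% of counts, most of it Mir200c (2696 and 1606 counts). The heart muscle genes Mir208a, Mir208b and Mir499 held 2.10% and 1.92%. Of these Mir499 was called higher in replicate 2 (log2 ratio −1.83), while Mir208a (0.52) and Mir208b (0.07) were not called. The endothelial genes Mir126a and Mir126b held 5.18% and 7.30%, nearly all of it Mir126a, since Mir126b had 4 and 3 counts, and the smooth muscle genes Mir143 and Mir145a 4.71% and 6.03%, with none called. Liver Mir122 was at 0.0105% and 0.00862%. Of the 3 neuronal genes matched, Mir124a-1 and Mir9-1 were at 0 in both libraries and Mir137 (103 and 22 counts) was called higher in replicate 1. Of the 8 markers named as called, edgeR's exact test called Mir205 (9 and 180 counts, adjusted p = 6.97e-05) and not the other 7 (adjusted p from 0.438 for Mir499 to 1.00 for Mir142 and Mir223). Under scaling by total counts Mir223 (−0.84) came within 2-fold. The part of these cells in the differences of Mir3074-1 and Mir27b was not tested.

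Other genes with numbered copies known for the same main strand were set beside the Mir24 genes. Of 42 such genes, among them Mirlet7f-2 (4416 ± 760.5 CPM, SD, n = 2), Mir92-1 (2889 ± 711 CPM), Mir181b-2 (1166 ± 290 CPM) and Mir16-1 (499.5 ± 203 CPM), 34 reached 10 counts in both libraries. The median level over the 42 was 27.4 CPM in replicate 1 and 26.2 CPM in replicate 2, and Mir24-1 and Mir24-2 lay above it. Over all 2202 genes, 1415 of them at 0 in both libraries, the medians were 0 and 0. Over the 491 genes tested they were 24.5 and 20.3 CPM. Of 37 tested, 3 were called, all higher in replicate 2 (Mir16-1, Mir1a-1 and Mir26a-2), beside 7.54% of all genes tested in that direction. Mir26a-2 (122 and 1298 counts) was also called by edgeR's exact test (adjusted p = 0.000265), while Mir16-1 and Mir1a-1 were not (adjusted p = 1.00 for both). Under scaling by total counts Mir16-1 (−0.85) came within 2-fold, Mir1a-1 (−1.22) missed the adjusted p, and Mir92-2 (1.17) and Mir133a-2 (2.14) were called higher in replicate 1.

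By level, the 7 members with 10 counts in both libraries sat next to genes whose ranges overlapped their own, with 1 exception. Mir143, directly above Mir23b, was higher in both libraries (45694 and 58717 CPM). Mirlet7d, directly below Mir23b, had 42125 and 33657 CPM and overlapped its range. Mir23a lay between Mir335 (31149 and 32537 CPM) and Mir322 (24892 and 28379 CPM), and was above both in replicate 1 and below both in replicate 2. Mir27b lay between Mir214 and Mir107, Mir27a between Mir195a and Mir872, Mir24-1 between Mir215 and Mir125b-2, Mir24-2 between Mir142 and Mir187, and Mir3074-1 between Mir205 and Mir192, each in an order that changed from 1 library to the other.

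Among genes within 2-fold of Mir23a's level, the 3 of 13 whose log2 ratio lay nearest that of the chromosome 8 cluster sum (0.26) were Mir139 (0.33), Mir652 (0.42) and Mirlet7b (−0.003). Among genes within 2-fold of Mir23b's level, the 3 of 9 nearest the chromosome 13 cluster sum (−0.32) were Mir26b (−0.29), Mir351 (−0.28) and Mirlet7g (−0.39). Likeness here rests on a single ratio between 2 libraries.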

How the data were processed

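Per the notes deposited with the files, the authors gave 1 table of raw counts per library, on mm10 with GENCODE M21. The values are whole numbers with a different total in each library. No source used here names the aligner, the counter or their settings. Each deposited table holds 3 count columns and 4 summary entries, which stayed out of library sizes. The columns have no header, so column 3 was taken from the values as the gene's own strand and column 4 as the opposite strand. Multi-mapped reads stand as 1 summary entry and in no gene's count. All 2202 gene IDs matched M21, and all 8 hairpins matched RefSeq's GRCm38.p6 table with the same coordinates, with 14 mature entries. The entries hold no 3p strand for Mir23b or Mir3074-1.

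CPM was computed on the own-strand total. TMM factors were 1.12 and 0.891 (edgeR 4.0.16, R 4.3.3; DESeq2 1.42.0 as an alternative), from genes with at least 10 counts in the sum. In log2 ratios of replicate 1 over replicate 2, 0.5 was added to each count. Counting noise is the only error in the exact binomial test. EdgeR's exact test used 1 common dispersion, estimated with both libraries as 1 group (0.117) from the 373 genes that reached 10 counts in both libraries. The binomial test was tested on simulated libraries with counting noise only, which leaves out any spread between hearts. Python 3.11.15, numpy 2.4.6, scipy 1.17.1 and matplotlib 3.10.9 were used.

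Recurring windows were searched in M21 transcripts in place of the genome, which was not used here. Named genes were all 8 members, the genes next to each by mean CPM, the 3 nearest in ratio to each cluster, and the highest and called members of the lists. The members, lists and tests were chosen with earlier results of these data known. Of the listed marker names, Mir124-2 had no match. The labels number different animals for the libraries but give both the same donor entry, and p-values compare these libraries only. Variants of the CAST parent were not analysed here.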

Additional observations from a re-analysis of the deposited data

How the results depend on the processing

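With all multi-mapped reads in the library size, a lower bound, the mean levels fell to 20964 CPM for Mir23b, 14434 for Mir23a, 2147 for Mir27b, 443 for Mir27a, 110 for Mir24-1 and 82.8 for Mir24-2. In the column without strand Mir24-1 and Mir24-2 were at 0, as were their shares of their clusters, and Mir23b rose to 51209 CPM and Mir27a to 1091 CPM, because the total is smaller. Dividing by hairpin length, chosen after seeing the data, moved the mean Mir24-1 share of its pair to 67.4% and no other share by more than its SD. Of the genes called between libraries, 55 became 4 in edgeR's exact test, and 43 to 61 under the other alternatives. Mir23b (0.10) and Mir24-1 (0.24) changed direction under scaling by total counts, and Mir27b (−0.84) lost its call there and in edgeR's exact test (−1.18). Mir3074-1 kept its call, at 2.58 to 2.94, in every binomial alternative except the column without strand, where it was at 0, and lost it in edgeR's exact test (2.64). With 22-nt windows, 100% of those of Mir23a, Mir23b, Mir27a and Mir27b were found nowhere else. Leaving out either replicate gives the other's values, printed above, and no comparison. The planned window search of the genome was run on transcripts. No paired analysis was possible because there is 1 group.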
